A study of Mus musculus with 14 samples.

Results

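The histone deacetylase genes were followed through the differentiation of C2C12 cells, an established line of mouse myoblasts that form multinucleate myotubes in low serum. The 10 genes Hdac1 to Hdac9 and Hdac11 were taken by their symbols from a table of 24016 transcripts with 1 transcript per gene, and each was found there once. Cells had received control siRNA (siCtrl) or a pool of siRNAs against Klf5 (siKlf5). Poly(A) RNA was sequenced on days 0, 1, 2 and 3, counted from the change to differentiation medium with 2% horse serum. Day 0 is read as the point before that change, as the paper describes it for its ChIP-seq. Contrasts with day 0 therefore also hold a change from growth medium. There was 1 library for each siRNA and day, 8 in all, and no siRNA and day had a replicate. Recovered depth was between 7850497 reads (siCtrl, day 1) and 20301506 reads (siCtrl, day 2). The study also holds 6 ChIP-seq samples, which were not used here.

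Histone deacetylases remove acetyl groups from lysines of histones and other proteins, and at genes they mostly act within repressor complexes. The class I enzymes Hdac1 and Hdac2 are the catalytic subunits of the NuRD, Sin3 and CoREST complexes, and Hdac3 is that of the NCoR complex. The class IIa proteins Hdac4, Hdac5, Hdac7 and Hdac9 have little enzyme activity of their own, and are best known in muscle for binding Mef2 factors and holding Mef2 target genes silent. Phosphorylation by calcium-dependent and related kinases binds them to 14-3-3 proteins and moves them out of the nucleus. Hdac6, of class IIb, deacetylates tubulin in the cytoplasm. Hdac11 is the sole class IV member.

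The labels were checked first. Klf5 in the siKlf5 library was at 15.7%, 41.9%, 31.3% and 22.7% of the siCtrl value on days 0, 1, 2 and 3. All 8 markers of myoblasts and myotubes on the list were expressed. Values are in FPKM, reads per kilobase of exon after scaling of each library. The sum of these markers went from 4345 on day 0 to 11062 on day 3 in siCtrl cells. In siKlf5 cells it went from 3787 to 10586. The sum holds genes that differed in opposite ways between the siRNAs. On day 3 Myog had 2292.9 in siCtrl and 1386.5 in siKlf5 cells, while Chrna1 had 1262.7 and 1536.6. Of 10 markers of other cell types, 3 (Plin1, Epcam and Krt18) were at 0 in every library, 2 (Cd68 and Bglap) had a mean of at least 1, and the sum of all 10 lay between 2.61 and 24.7. The summed value of 6 genes of dividing cells went from 3452 to 1237 in siCtrl cells and from 3733 to 1480 in siKlf5 cells over the same days. In such bulk RNA, fewer cells of a type and less RNA per cell cannot be told apart.

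The sequences upstream of 5 of the 6 genes that changed with differentiation are shown, so that those that rose can be read beside those that fell. The window of the remaining gene, Hdac7, held none of the motifs searched and is not printed. These 5 were chosen after the values were seen. Each is the 250 bases before the transcript start, read 5′ to 3′ from the mm9 genome at the positions of the deposited table. Capitals mark E-boxes (CANNTG, the kind of site bound by MyoD) and GC boxes (CCGCCC on either strand, as bound by Klf and Sp factors). The regions are chr12:35213755-35214004 (minus strand) for Hdac9, chr6:91106559-91106808 (plus strand) for Hdac11, chr1:94044971-94045220 (minus strand) for Hdac4, chr4:129219891-129220140 (minus strand) for Hdac1 and chrX:7525016-7525265 (minus strand) for Hdac6.
Hdac9: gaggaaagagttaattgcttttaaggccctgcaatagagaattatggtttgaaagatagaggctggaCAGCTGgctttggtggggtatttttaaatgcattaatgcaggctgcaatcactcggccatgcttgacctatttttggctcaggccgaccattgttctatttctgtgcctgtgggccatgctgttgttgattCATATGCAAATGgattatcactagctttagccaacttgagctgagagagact
Hdac11: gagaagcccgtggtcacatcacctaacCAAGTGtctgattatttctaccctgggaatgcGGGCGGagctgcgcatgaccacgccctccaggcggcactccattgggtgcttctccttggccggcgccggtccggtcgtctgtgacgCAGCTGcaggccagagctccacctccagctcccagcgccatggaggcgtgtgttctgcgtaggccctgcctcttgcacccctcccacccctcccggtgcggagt
Hdac4: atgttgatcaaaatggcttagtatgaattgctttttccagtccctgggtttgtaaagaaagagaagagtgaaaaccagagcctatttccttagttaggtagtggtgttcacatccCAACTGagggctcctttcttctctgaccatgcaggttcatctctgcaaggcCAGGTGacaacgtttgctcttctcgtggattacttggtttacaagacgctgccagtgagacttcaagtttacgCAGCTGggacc
Hdac1: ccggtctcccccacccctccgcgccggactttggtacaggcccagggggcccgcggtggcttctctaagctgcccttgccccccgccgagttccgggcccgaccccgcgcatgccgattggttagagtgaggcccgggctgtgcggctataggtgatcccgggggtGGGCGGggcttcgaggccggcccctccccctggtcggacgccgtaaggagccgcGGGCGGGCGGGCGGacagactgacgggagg
Hdac6: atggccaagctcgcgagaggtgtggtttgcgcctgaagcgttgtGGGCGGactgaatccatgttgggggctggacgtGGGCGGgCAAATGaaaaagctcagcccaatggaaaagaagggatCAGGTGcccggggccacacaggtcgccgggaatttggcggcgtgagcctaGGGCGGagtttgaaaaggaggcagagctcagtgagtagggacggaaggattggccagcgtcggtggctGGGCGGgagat

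The first 3 of these genes were higher on day 3, and each upstream window held the E-box CAGCTG, which was in 12.4% of the 23950 windows searched. The window of Hdac3 held it too. Hdac1 and Hdac6, which were lower on day 3, had 4 GC boxes each, of which 3 in Hdac1 overlap. The share of all windows with 4 GC boxes was not counted. Hdac11, which was higher, had 1 GC box, and Hdac6 had 2 E-boxes, as many as Hdac11. A GC box was in 41.6% of all windows, and in none of those of Hdac4, Hdac7, Hdac8 and Hdac9. An E-box of any kind stood in 62.9% of all windows and in 7 of the 10 of the deacetylases, those of Hdac1, Hdac2 and Hdac7 being the exceptions. CG pairs numbered 28 in the window of Hdac1, 27 in Hdac2, 17 in both Hdac6 and Hdac11, 16 in Hdac3 and 12 in Hdac5. They numbered 6 in Hdac8, 5 in Hdac7, 4 in Hdac4 and 2 in Hdac9, and were not counted over all windows. A Mef2 site was in 1.56% of all windows and, among the deacetylases, in that of Hdac5. A CACCC box (CCACCC on either strand), another Klf site, was in 29.3% of all windows and in those of Hdac1, Hdac5 and Hdac11. Such matches describe the letters only, and a link between motifs and the direction of change was not tested.

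On day 3 of differentiation the set had split. Hdac9, Hdac11 and Hdac4 were higher than on day 0, whereas Hdac6, Hdac7 and Hdac1 were lower. The remaining members, Hdac2, Hdac3, Hdac5 and Hdac8, did not pass the test. Since no condition had a replicate, the test was the day term of a limma fit of log2(FPKM + 0.1) on siRNA and day over all 8 libraries, which takes the siRNA difference as equal on all days and measures error by departures from that. Of all 14312 expressed transcripts 12.8% were called higher on day 3 and 17.6% were called lower at an adjusted p under 0.05, against 3 and 3 of the 10 members. The median change of the members was 0.12 on the log2 scale and that of all expressed transcripts was -0.09, a median that moved to 0.01 with median-ratio scaling. With that scaling 54.4% of all calls were higher rather than 42.1%, while all 10 members kept their direction under both scalings that were tried. With no filter on low values none of the higher members passed. The adjusted p by limma was then 0.050 for Hdac11, 0.057 for Hdac9 and 0.076 for Hdac4. Of the lower members Hdac7 did not pass either (0.20), while Hdac1 (0.021) and Hdac6 (0.029) did.

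**Figure D1:**
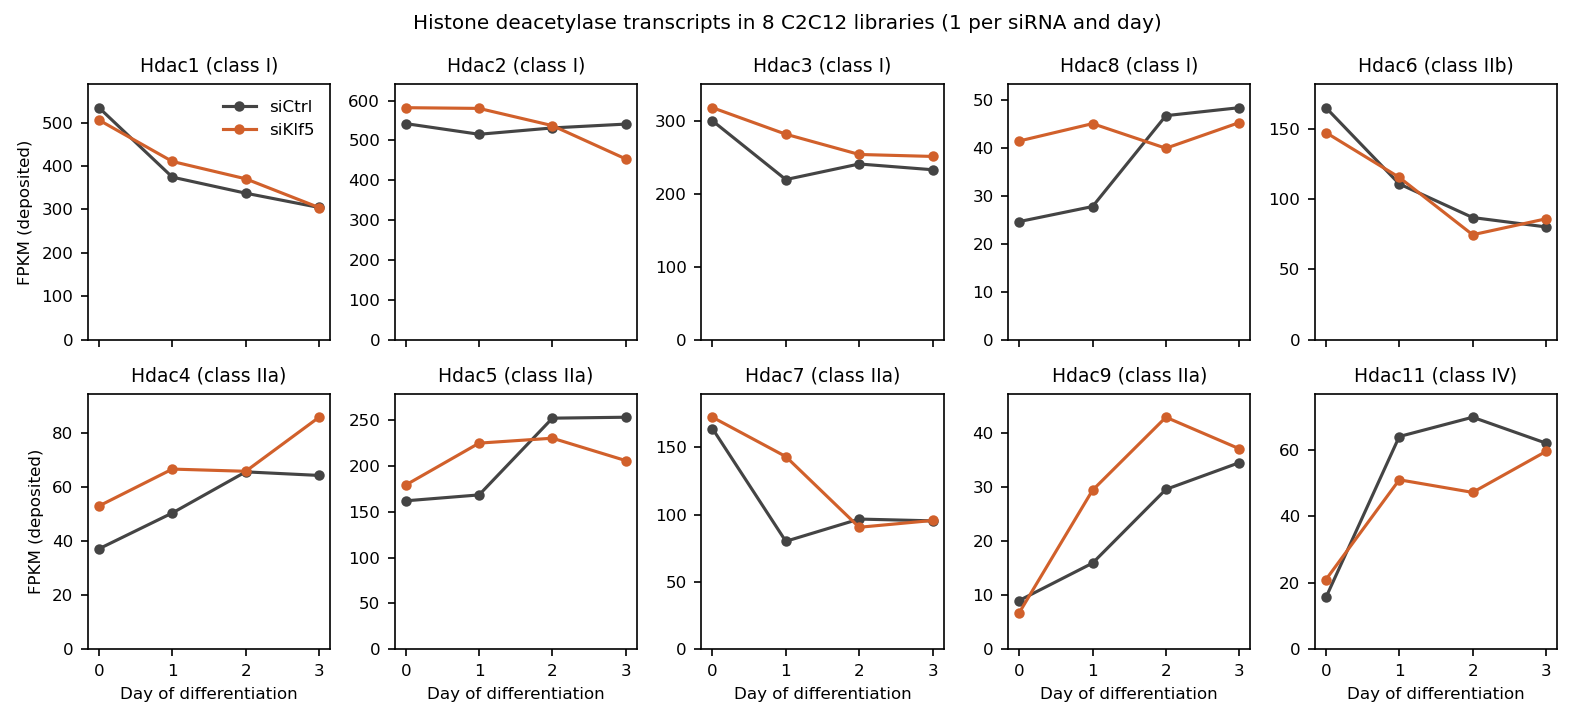
Deposited FPKM (y axis, starting at 0 and set for each gene) of the 10 deacetylase transcripts on days 0 to 3 (x axis); each point is 1 library, grey for siCtrl and orange for siKlf5. Under both siRNAs Hdac4, Hdac5, Hdac9 and Hdac11 have their lowest value on day 0, while Hdac1, Hdac2, Hdac3, Hdac6 and Hdac7 have their highest there.

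Levels per exon length were led by class I. Averaged over the 8 libraries, FPKM was 535.5 for Hdac2, 393.0 for Hdac1 and 263.0 for Hdac3, then 209.7 for Hdac5, 117.2 for Hdac7 and 108.2 for Hdac6. It was 61.2 for Hdac4, 48.8 for Hdac11, 40.0 for Hdac8 and 25.6 for Hdac9. Hdac2 was thus above 93.9% of expressed transcripts and Hdac9 above 29.3%. Hdac2 exceeded Hdac1, and Hdac1 exceeded Hdac3, in 8 of 8 libraries. The ranges over the libraries overlapped for every pair of neighbours in this order, and Hdac7 and Hdac6 were the closest pair, with a ratio of means of 1.08.

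Hdac1 (NM_008228, chr4:129193348-129219890 of mm9, minus strand) was the class I member that fell. Its FPKM was 534.8, 374.6, 337.6 and 304.7 on days 0, 1, 2 and 3 in siCtrl cells, and 506.3, 410.8, 370.7 and 304.4 in siKlf5 cells. Both day 0 values lay above all 6 later ones, and the level went down at each step in both series. On day 3 the log2 change was -0.77 ± 0.11 (SE, limma adjusted p = 0.0013), a level 0.585 times that of day 0. A pseudogene name, Hdac1-ps, is listed among the aliases of this row, so reads of near-identical copies may be counted in it.

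Hdac2 kept the highest level of the family. It had 542.3, 515.5, 531.4 and 541.1 FPKM in siCtrl cells, and 582.3, 580.4, 537.2 and 453.5 in siKlf5 cells. The siCtrl values were close to one another on all days, and the siKlf5 library of day 3 was the lowest of the 8. The change from day 0 to day 3 was -0.18 on the log2 scale (95% interval -0.47 to 0.10, limma adjusted p = 0.31).

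Hdac3, the enzyme of the NCoR complex, had 300.9, 220.1, 241.5 and 233.6 FPKM in siCtrl cells and 319.0, 282.5, 254.6 and 251.9 in siKlf5 cells. Both day 0 values were above every later value. Its change, -0.35 ± 0.12 (SE), missed the threshold at an adjusted p of 0.053 by limma, and it passed in 5 of the 16 other settings. Hdac8, a class I enzyme that deacetylates cohesin, was low, with 24.7 to 48.5 FPKM in siCtrl cells and 40.0 to 45.4 in siKlf5 cells. Its value rested on 61 to 269 reads, and its day 3 change of 0.55 had a 95% interval of -0.19 to 1.29 (limma adjusted p = 0.24).

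Among the class IIa genes Hdac9 (NM_024124, chr12:35056362-35213754, minus strand) changed most. Its FPKM was 8.98, 15.9, 29.5 and 34.5 on days 0 to 3 in siCtrl cells, and 6.71, 29.4, 42.9 and 37.1 in siKlf5 cells. The 2 day 0 values were the lowest of the 8, and the highest was that of siKlf5 on day 2. The log2 change on day 3 was 2.19 ± 0.40 (SE, limma adjusted p = 0.0052), or 4.56-fold. Without the siCtrl day 3, siKlf5 day 0 or siKlf5 day 3 library the adjusted p was 0.095, 0.071 and 0.075, and the change lay between 1.73 and 2.65 over the libraries left out in turn. The day 0 values rest on 78 and 53 reads. Hdac9 also makes a shorter form, Mitr, without the deacetylase domain. A table with 1 transcript per gene does not separate the forms. Whether NM_024124 holds the exons of the deacetylase domain was not examined.

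Hdac4 (NM_207225, chr1:93829332-94044970, minus strand) rose by a smaller factor. It had 37.2, 50.5, 65.7 and 64.4 FPKM in siCtrl cells, and 53.0, 66.7, 65.9 and 85.9 in siKlf5 cells. Both day 3 values were above both day 0 values, although the siKlf5 day 0 value exceeded that of siCtrl on day 1. The log2 change was 0.74 ± 0.21 (SE, limma adjusted p = 0.028), or 1.67-fold. Leaving out any of the 4 libraries of days 0 and 3 put the adjusted p between 0.097 (siKlf5 day 0) and 0.17 (siKlf5 day 3), with 0.16 without siCtrl day 0 and 0.13 without siCtrl day 3. Hdac5 also stood higher on day 3 than on day 0, with 162.1, 168.6, 252.5 and 253.5 FPKM in siCtrl cells and 179.4, 225.2, 230.6 and 206.1 in siKlf5 cells. Its change of 0.42 ± 0.17 (SE) did not pass (limma adjusted p = 0.10), and it passed with median-ratio scaling (0.041), with upper-quartile scaling (0.043) and with the deposited log2 values (0.043).

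Hdac7 (NM_001204281, chr15:97623095-97645294, minus strand) was the class IIa member that went down. Its FPKM was 164.0, 80.1, 96.7 and 95.3 in siCtrl cells, and 172.4, 143.1, 90.6 and 95.6 in siKlf5 cells. The 2 day 0 values lay above all others, and the siCtrl series reached its lowest value on day 1, a day before the siKlf5 series did. The log2 change on day 3 was -0.82 ± 0.23 (SE, limma adjusted p = 0.029), a level 0.568 times that of day 0. This call held in 8 of 16 other settings, the fewest of the 6. It missed the threshold with no filter on low values (limma adjusted p = 0.20) and without the trend (0.12). Leaving out a library put its adjusted p at 0.22 and 0.15 (siCtrl day 0 and day 3), 0.16 and 0.25 (siKlf5 day 0 and day 3) and 0.089 (siCtrl or siKlf5 day 2). The Hdac7 locus overlaps Slc48a1 on the other strand, and strand was not used in the counting.

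Hdac6 (NM_001130416, chrX:7507248-7525015, minus strand), the tubulin deacetylase, had the largest fall of the family in the fit and in siCtrl cells, whereas that of Hdac7 was larger in siKlf5 cells and in the fit without siCtrl day 3 (-0.95 against -0.80). It had 165.0, 110.7, 86.8 and 80.1 FPKM in siCtrl cells and 147.3, 115.4, 74.6 and 85.9 in siKlf5 cells. Under both siRNAs day 0 was highest, day 1 was lower and days 2 and 3 were lowest, and these 3 steps did not overlap across the 8 libraries. The log2 change was -0.91 ± 0.15 (SE, limma adjusted p = 0.0033), or 0.533 times the day 0 level. It missed the threshold at 0.057 without siCtrl day 0 and without siCtrl day 3.

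Hdac11 (NM_144919, chr6:91106809-91124677, plus strand), which removes long fatty acyl groups from lysines, had risen by day 1. Its FPKM was 15.6, 64.1, 69.9 and 62.1 in siCtrl cells and 21.0, 51.1, 47.3 and 59.6 in siKlf5 cells. The day 0 values lay below all 6 later ones, which ranged from 47.3 to 69.9. The log2 change from day 0 to day 1 was 1.66 ± 0.28 (SE) and that to day 3 was 1.75 ± 0.28 (SE, limma adjusted p = 0.0029), or 3.36-fold. For Hdac9 the same 2 changes were 1.47 ± 0.40 and 2.19 ± 0.40. Without the siCtrl or siKlf5 day 3 library the adjusted p of Hdac11 was 0.067 and 0.070.

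**Figure D2:**
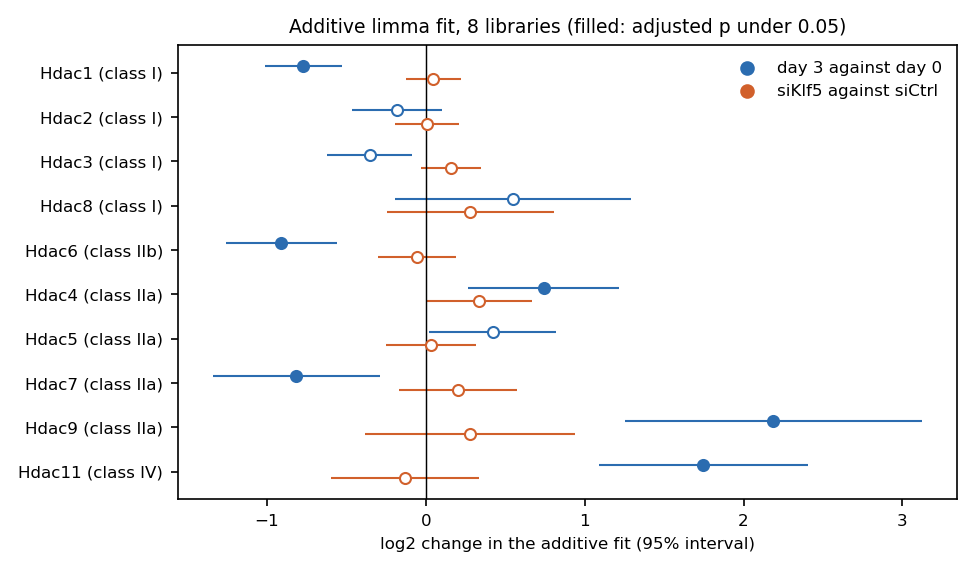
Change on the log2 scale (x axis) with its 95% interval for each deacetylase (y axis, class in parentheses) in the additive limma fit of 8 libraries, blue for day 3 against day 0 and orange for siKlf5 against siCtrl; filled points have an adjusted p under 0.05. The 6 filled points are all blue, from -0.91 for Hdac6 to 2.19 for Hdac9.

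Within each siRNA every member had the direction of the fit, and the 2 series share no library. The fitted day 3 change is the mean of these 2 ratios, so this agreement is not separate support. In siCtrl cells Hdac11 (log2 ratio 1.99, 95% counting interval 1.09 to 3.01) and Hdac9 (1.93, 1.04 to 2.94) were more than 2-fold higher on day 3 than on day 0, and Hdac6 (-1.04, -1.39 to -0.71) was more than 2-fold lower. Of all expressed transcripts 15.5% were past this fold upward and 12.7% downward in siCtrl cells. In siKlf5 cells Hdac9 (2.45, 1.42 to 3.69) and Hdac11 (1.504, 0.65 to 2.45) were past 2-fold upward and no member was past it downward, against 14.9% and 12.4% of all. Hdac6 was at -0.78 and Hdac7 at -0.85 there. The fall of Hdac1 was close to the same size in both, at -0.81 and -0.73. Whether any member differed in its course between the siRNAs was not tested, since each course is 1 library a day.

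Summed over members, the class makeup on day 3 differed from that on day 0, a difference that was not tested. Class I held 71.7% of the summed deacetylase FPKM in siCtrl cells and 71.4% in siKlf5 cells on day 0, and 65.7% and 64.9% on day 3. The class IIa share went from 19.0% and 20.3% to 26.1% and 26.1%. In FPKM, the class I sum was 1403 and 1449 on day 0 and 1128 and 1055 on day 3, whereas the class IIa sum was 372.2 and 411.5 and then 447.7 and 424.7. The 6 genes of dividing cells fell in the same libraries, and their part in these results was not tested.

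Klf5 knockdown was compared with control on the same days. In the siRNA term of the additive fit, which has 4 libraries on each side paired by day, no deacetylase was called by limma. Nor did any have an unadjusted p under 0.05, the lowest being 0.051 for Hdac4. Such an unadjusted p was found for 1374 of the 14312 expressed transcripts, so none among 10 is no result about the members. Of all expressed transcripts 0.00699% were called higher (1) and 0.0559% lower (8), and Klf5 was among the latter at -1.94 ± 0.20 (SE, adjusted p = 0.024). The differences of the deacetylases ran from -0.13 for Hdac11 to 0.33 for Hdac4. Their 95% intervals ran from -0.12 to 0.22 for Hdac1, -0.19 to 0.21 for Hdac2 and -0.03 to 0.35 for Hdac3. They ran from -0.25 to 0.32 for Hdac5, -0.17 to 0.58 for Hdac7 and -0.30 to 0.19 for Hdac6. For the scarcer members they ran from -0.60 to 0.33 for Hdac11, -0.24 to 0.81 for Hdac8 and -0.38 to 0.94 for Hdac9. A difference of 2-fold that is equal on all days lay outside the interval of all 10 members. The member nearest to the threshold was Hdac4, higher in siKlf5 cells on 4 of 4 days, with an interval of -0.001 to 0.67 (adjusted p = 0.52).

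On single days the siKlf5 to siCtrl ratios have no replicate, and their intervals cover counting error only. On day 0, Hdac8 was past 1.5-fold upward (log2 ratio 0.75, 95% interval -0.29 to 1.84) and no member was past it downward, where 9.22% and 11.1% of expressed transcripts were. On day 1, 9 of 10 members were higher in the siKlf5 library, and 3 were past 1.5-fold upward against 16.4% of all. These were Hdac9 (0.88, -0.06 to 1.89), Hdac7 (0.84, 0.39 to 1.297) and Hdac8 (0.70, -0.50 to 1.98), of which the interval of Hdac7 alone left out 0. Hdac5, short of 1.5-fold, also had an interval above 0 (0.42, 0.09 to 0.75). No member was past it downward on day 1, against 11% of all. The day 1 libraries were the shallowest pair, and the median of all expressed transcripts was 0.03 on that day.

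No deacetylase was past 1.5-fold in either direction on days 2 and 3. The share of all expressed transcripts was 7.69% upward and 13% downward on day 2, and 10.7% and 12.5% on day 3. Hdac11 (-0.56, -1.15 to -0.01) and Hdac9 (0.54, 0.02 to 1.05) were furthest from 0 on day 2, and went opposite ways. On day 3 Hdac5 (-0.30, -0.55 to -0.05) and Hdac2 (-0.25, -0.49 to -0.02) had intervals below 0, whereas that of Hdac5 had lain above 0 on day 1. How many of all expressed transcripts had intervals that left out 0 was not counted. Hdac1, Hdac7 and Hdac11 stood at 99.9%, 100.3% and 96.0% of the control value on that day. The median log2 ratio of the members was 0.09, 0.38, -0.04 and 0.00 on days 0, 1, 2 and 3.

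**Figure D3:**
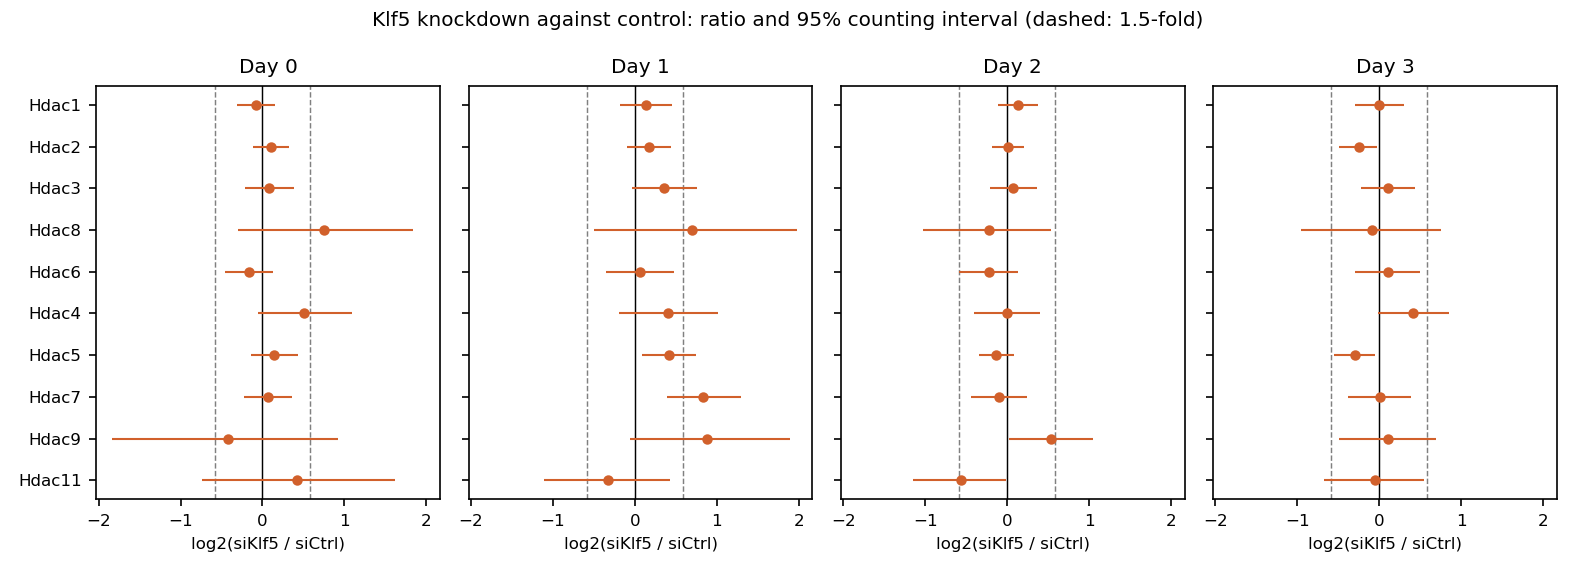
Ratio of the siKlf5 to the siCtrl library on the log2 scale (x axis) for each deacetylase (y axis) on days 0, 1, 2 and 3; points are the ratios, bars are 95% counting intervals and dashed lines mark 1.5-fold. On day 1 the points lie right of 0 except that of Hdac11, and on days 2 and 3 all points lie between the dashed lines.

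The partner subunits of the deacetylases were read in the same fit. Of 37 subunits of the NuRD, Sin3, CoREST and NCoR complexes, all expressed, 2 rose and 10 fell from day 0 to day 3, where 12.8% of all expressed transcripts were called higher and 17.6% lower. Their median was -0.10 on the log2 scale against -0.09 for all expressed transcripts. NuRD had the most calls, with 5 of 11 lower and 1 higher. The histone-binding subunit Rbbp7, counted here under NuRD only, fell by 0.61 on the log2 scale (limma adjusted p = 0.0027). Mbd3 fell by 0.59 (adjusted p = 0.012). Chd3, one of the remodelling ATPases of NuRD, rose from 388.4 to 590.4 FPKM in siCtrl cells and from 422.1 to 744.2 in siKlf5 cells. Its change was 0.71 ± 0.11 (SE, limma adjusted p = 0.0021). Another such ATPase, Chd4, had a change of 0.17 (adjusted p = 0.21).

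In the Sin3 list 2 of 13 fell and 1 rose, which is near or below the 17.6% and 12.8% of all expressed transcripts. The scaffold Sin3a fell by 0.68 on the log2 scale (limma adjusted p = 0.0084) and its subunit Sap130 fell by 0.71 (adjusted p = 0.0023), while the paralogous scaffold Sin3b rose by 0.34 (adjusted p = 0.046). Of 8 CoREST genes Rcor2, a scaffold, was the sole one called, at -0.89 (adjusted p = 0.027). Of 5 NCoR genes, Gps2 (-0.54, adjusted p = 0.0084) and Tbl1x (-0.43, adjusted p = 0.044) were lower.

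The genes that act with class IIa proteins were counted next. Of 21 listed Mef2 factors, kinases and 14-3-3 genes 19 were expressed, of which 7 rose and 2 fell, with a median of 0.24, where 12.8% and 17.6% of all expressed transcripts were called higher and lower. Mef2c, a Mef2 factor of muscle, had 18.7, 55.2, 162.9 and 315.2 FPKM on days 0 to 3 in siCtrl cells, and 20.1, 53.2, 115.9 and 217.7 in siKlf5 cells. It went up on each day in both series, by 3.75 ± 0.21 (SE) on the log2 scale by day 3 (limma adjusted p = 1.56e-05). The kinase gene Camk2a had 13.8, 51.8, 187.8 and 245.1 FPKM in siCtrl cells, and 3.44, 30.3, 71.4 and 91.9 in siKlf5 cells. It was lower in the siKlf5 library on every day, yet its siRNA difference of -1.39 ± 0.21 (SE) did not pass over all transcripts (limma adjusted p = 0.11). The 14-3-3 genes Ywhah (-0.71, adjusted p = 0.0055) and Ywhaq (-0.59, adjusted p = 0.0035) fell.

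Other enzymes that add or remove acetyl groups were counted too. Of 7 sirtuins, the NAD-dependent deacetylases, Sirt2 alone rose, by 0.73 on the log2 scale (limma adjusted p = 0.0098). Of 12 acetyltransferases 2 fell and 1 rose, again near or below the 17.6% and 12.8% of all, with a median of -0.23. Hat1, which acetylates newly made histone H4, went from 431.5 to 131.1 FPKM in siCtrl cells and from 492.3 to 158.6 in siKlf5 cells, a change of -1.68 ± 0.13 (SE, adjusted p = 1.02e-04). The related Kat2a and Kat2b went opposite ways, at -0.75 (adjusted p = 0.0032) and 0.47 (adjusted p = 0.036). None of the partner, sirtuin or acetyltransferase genes was called for the siRNA term.

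**Figure D4:**
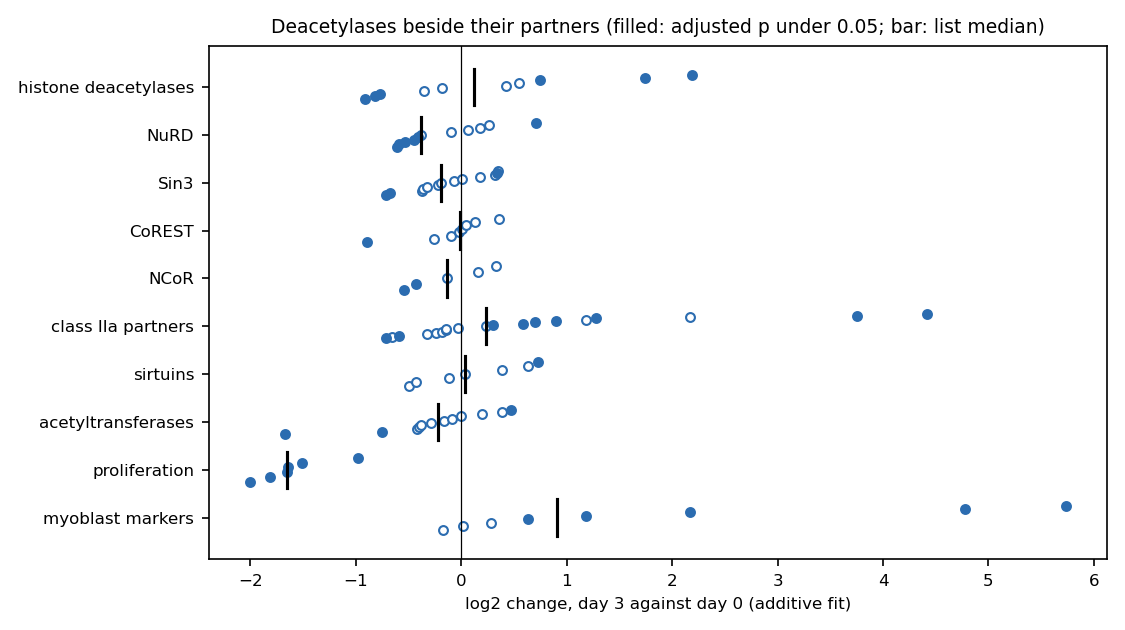
Change from day 0 to day 3 on the log2 scale in the additive limma fit (x axis) for each expressed gene of a list (y axis); filled points have an adjusted p under 0.05 and black bars are list medians. The deacetylases spread from -0.91 to 2.19, the 37 complex subunits from -0.89 to 0.71, all 6 genes of dividing cells lie below 0 and the myoblast markers reach 5.74.

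The transcripts most like Hdac9 over the 8 libraries, by Pearson correlation of log2(FPKM + 0.1) among the 11590 transcripts averaging 10 or more, were Nid2 (r = 0.996), Mxra8 (r = 0.995) and Tspan3 (r = 0.994). For Hdac6 they were Dlg3 (r = 0.984), Gtf3a (r = 0.979) and Snrpb2 (r = 0.978). Nid2, a basement membrane protein, had 51.0, 118.4, 270.5 and 286.7 FPKM in siCtrl cells and 42.2, 247.3, 424.5 and 383.8 in siKlf5 cells, which like Hdac9 was higher in the siKlf5 library on days 1, 2 and 3. These values describe the 8 libraries, which share days and siRNAs, and were the highest of a search over all such transcripts.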

How the data were processed

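Poly(A) RNA of C2C12 cells was sequenced in 8 libraries, 1 per siRNA and day. The authors aligned paired reads to mm9 with STAR and counted them on RefSeq exons with HOMER, without strand, with at most 3 reads per position and 1 transcript per gene. The deposited FPKM values were scaled to a total of 10000000 per library, so they exceed FPKM in the usual sense. The deposited log2 values, made by the authors from FPKM plus 1 plus a number between 0 and 1, served in 1 alternative; 1 such column names no day and was not used. Exon lengths are those deposited.

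Reads behind each value were recovered from FPKM and exon length; all values checked lay within 0.1 of a whole number. Transcripts with 6 reads outnumbered those with 5, so 95% exact binomial (Clopper-Pearson) intervals of a ratio used reads divided by 6. Such intervals hold counting error and nothing else. A ratio is log2((a + 0.1)/(b + 0.1)), which understates changes of low values.

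Transcripts with a mean FPKM of at least 1 (14312) were fitted with limma 3.58.1 (R 4.3.3; trended eBayes) on log2(FPKM + 0.1), with siRNA and day as terms, 3 residual degrees of freedom and Benjamini-Hochberg adjustment over all of them. Nothing says that the libraries are independent cultures, and no siRNA and day had a replicate. The p-values thus rest on how far the siRNA difference in these libraries departed from being equal on all days. Such departures hold noise and any true change of that difference between days, which cannot be told apart. The siRNA term of the fit was tried on simulated data with additive effects and independent noise. The day term and the assumption of additive effects were not tested in this way. Named are all members, up to 2 genes per list that rose and 2 that fell most among those called for day (1 each for siRNA), and the 3 transcripts most like the member that rose and the one that fell most; Chd4 and the sequences shown were added after the values were seen. Members and lists were chosen with earlier results of these data known. The alternatives changed the pseudocount, filter, scaling, cutoff or fit, or left out 1 library. Promoter windows came from the NCBIM37 (mm9) genome; GENCODE M1 lists all 10 genes as protein-coding, with starts within 45 bases of those deposited. Tables and plots were made in Python 3.11.15 (matplotlib 3.10.9, scipy 1.17.1, pandas 2.3.3, numpy 2.4.6).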

Additional observations from a re-analysis of the deposited data

How the results depend on the processing

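For day 3 against day 0, all 10 members kept their direction in the 16 other settings of the limma fit. Hdac1 passed in 16 of them, Hdac6 in 14, Hdac11 in 13, Hdac9 in 12, Hdac4 in 10 and Hdac7 in 8. Leaving out 1 library, which leaves a day with 1 library assumed to vary like the rest, gave 0 to 3 members higher and 1 to 4 lower, and 668 to 1811 transcripts higher and 752 to 2423 lower in all. With no filter on low values 24016 transcripts were tested, of which 5670 had an unadjusted p under 0.05. There 0 members were called higher and 2 lower, and 905 transcripts were higher and 1256 lower. Without the trend 1366 were lower. For the siRNA term, 0 members were called in any of 17 settings. In all transcripts there were 0 higher and 0 lower with no filter, without the trend and without any 1 library, 0 and 1 with no day term, and 22 lower with the deposited log2 columns. Those columns, which lack siKlf5 on day 1, turned the signs of the siRNA differences of Hdac2 (-0.0456), Hdac5 (-0.0932) and Hdac7 (-0.00560). Leaving out a library turned signs of Hdac2, Hdac5, Hdac7 and Hdac11 too, with values from -0.0455 to 0.0964, -0.0945 to 0.144, -0.00592 to 0.304 and -0.317 to 0.0132. For the single-library ratios, a 2-fold cutoff left 0 members on days 0 and 1. A 1.5-fold cutoff for day 3 against day 0 gave 5 higher and 3 lower in siCtrl cells (22.5% and 23.5% of all expressed transcripts) and 3 higher and 3 lower in siKlf5 cells (21.7% and 23.6%). With a pseudocount of 5 or either other scaling 0 were past 2-fold downward in siCtrl cells. Intervals on single reads left out 0 for 5, 9 and 5 members on days 0, 1 and 2, against 0, 2 and 2. On day 3 those of Hdac2, Hdac4 and Hdac5 left out 0. Such intervals take each read as independent and are narrower. The same share over all expressed transcripts was not counted, so these counts are no result about the members. No paired analysis by replicate number was possible because the labels give none; day is a term of the fit. Depth limits Hdac8, Hdac9 and Hdac11 most. The causes of these changes were not tested.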

Other observations

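Hdac10, the other class IIb gene, is in the table but was not among the genes followed. Its FPKM was 82.2, 37.1, 69.3 and 92.1 on days 0, 1, 2 and 3 in siCtrl cells, and 116.3, 79.2, 79.1 and 63.4 in siKlf5 cells. The 2 series thus ended on opposite sides of their day 0 values, with siKlf5 higher on days 0, 1 and 2 and lower on day 3.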
